A study of Mus musculus with 9 samples.

Results

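Among cells collected with small vessels of the adult mouse brain, 137 carried the deposited label MG, and these cells are the subject here. They were chosen by that label alone and were 137 of 1235 cells in all, 11.1% of them (95% exact Clopper-Pearson interval 9.40 to 12.98%). Their RNA was read cell by cell with Smart-seq2, which covers whole transcripts and carries no molecular identifiers. The other 8 labels, aEC, capilEC, vEC, CP-EC, PC, aSMC, vSMC and FB, served as reference, and the sources used here do not spell them out or say how cells were given a label. All groups came from brain tissue that was dissociated mechanically and with enzymes, after which vascular fragments were isolated, digested to single cells and sorted into 384-well plates. No strain, genotype, sex, exact age or treatment was given, and no gate of the sort was named.

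Each label was deposited as 1 sample and no animal was named, so there was no replicate of a label and no test between labels was made. A level is given as reads per 1000000 reads of a label or cell (CPM), and a difference as a difference of log2(CPM + 5). Intervals cover counting error only, because reads amplified by PCR cannot be traced back to single molecules here. The MG cells held 32608182 reads, with 101629 to 590307 per cell and a median of 232674, beside a median of 192941 in capilEC. At this depth a gene with no read in MG is limited to 0.092 CPM, which is 3 reads of the total. Plate names open the cell names: s169s held 44 MG cells, s480s 49, s482s 34 and s483s 10, which were 13.7%, 18.8%, 10.3% and 3.1% of the cells of each plate. The interval of the pooled share treats cells as independent draws and does not cover this spread between plates. A gene that the authors may have used to assign labels is no independent evidence of them, so the differences between labels are given as descriptions.

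Microglia are the resident macrophages of the brain parenchyma. They arise from yolk sac progenitors, depend on signalling through the receptor encoded by Csf1r and on the transcription factor PU.1, and survey the tissue with moving processes that respond to extracellular nucleotides. Some of them rest their cell bodies or processes on capillaries. Other brain macrophages lie in the perivascular space, the meninges and the choroid plexus, and share many genes with microglia.

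The 5 markers of the label were high in MG on all 4 plates. Cx3cr1, the receptor for fractalkine, stood at 2957 CPM on s169s, 6763 on s480s, 5988 on s482s and 5932 on s483s, and its highest level elsewhere was 54.4 CPM in CP-EC. P2ry13, a receptor for ADP, stood at 2116, 1687, 1644 and 1603 CPM on the same plates against 18.7 CPM in CP-EC. Csf1r, the receptor for colony stimulating factor 1 and interleukin 34, stood at 2862, 5553, 5007 and 4388 CPM against 121 CPM in CP-EC. In these markers every plate of MG was above the highest other label, and Cx3cr1 and Csf1r were lowest on s169s. Tmem119, a membrane protein used to tell microglia from other macrophages, stood at 993.6 CPM on s169s and at 3134, 3024 and 3041 CPM on the others, against 235 CPM in FB. C1qa, a chain of the complement starter C1q, ran from 2980 to 3948 CPM over the plates, against 161 CPM in CP-EC.

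**Figure D1:**
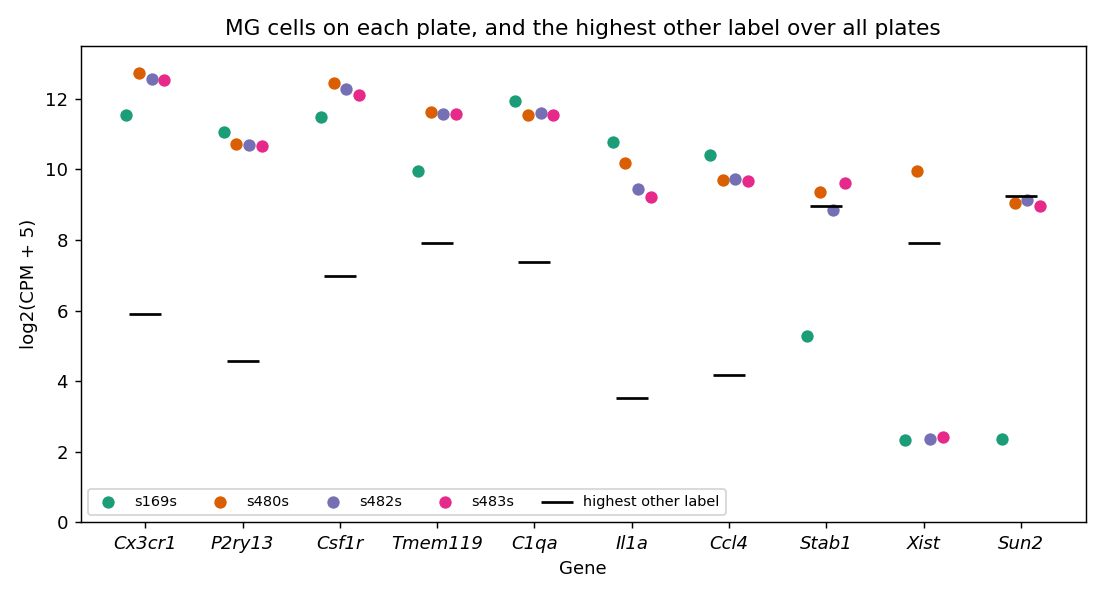
Level of 10 genes in the MG cells of each plate (points, coloured by plate) on the log2(CPM + 5) scale, with the highest other label over all plates as a bar. The 5 markers, Il1a and Ccl4 lie above the bar on every plate, Stab1 and Sun2 are low on s169s, and Xist is high on s480s only among the 4 plates.

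A read alone separated the cells poorly, and the level did so. With every cell thinned to 100000 reads, Cx3cr1 had a read in 133 of 137 MG cells (97.1%, 92.7 to 99.2%) and also in 478 of 787 capilEC cells (60.7%, 57.2 to 64.2%), although the capilEC level was 23.0 CPM. For Tmem119 the thinned shares were 88.3% of MG cells and 40.0% of capilEC cells. Aif1, which encodes the actin-binding protein Iba1, was less widespread in capilEC, with a read in 93.4% of MG cells (87.9 to 97.0%) and 16.6% of capilEC cells (14.1 to 19.4%). Below, a share of cells with a read is given as a description and as 1 part of the rule of size, beside the level.

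By a rule of size, 167 genes were higher in MG than in every other label: at least 4-fold above the highest of the other 8, at least 50 CPM, and a read in at least 50% of MG cells. These were 1.08% of 15494 genes measured. For 164 of the 167, MG was also above each other label on each plate with at least 5 cells of both, by direction alone. FB never had 5 cells on a plate and CP-EC had them only on s483s, so both were mostly absent from this comparison. Their differences from the highest other label ran from 2.01 to 6.61 on the log2 scale with a median of 3.86. The label next to MG was PC for 46 of them, CP-EC for 39 and vSMC for 22, and capilEC, the label with most cells, for 9. PC, CP-EC and vSMC had 54, 17 and 29 cells, and a few of these cells held many microglial reads, as described below. The part of those cells in this order of labels was not tested.

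Among the 30 genes with the largest differences, the largest was that of Il1a, the cytokine interleukin 1 alpha, at 1735, 1161, 695.5 and 585.2 CPM on s169s, s480s, s482s and s483s, against 6.51 CPM in vSMC (6.61 on the log2 scale). In single MG cells Il1a ran from 0 to 7506 CPM with a median of 400.3, so its level differed widely between cells. C3ar1, the receptor for the complement fragment C3a, stood at 662 CPM against 5.14 in CP-EC (6.04). Sirpa, which receives the signal of Cd47 that restrains phagocytosis, stood at 1563 CPM against 16.9 in CP-EC (6.16). Fcgr1, the high-affinity receptor for IgG, stood at 547 CPM against 3.55 in PC (6.01). Il10ra, the ligand-binding chain of the interleukin 10 receptor, stood at 689.3 CPM and Csf3r, the receptor for granulocyte colony stimulating factor, at 284.6 CPM, both against 12.1 CPM or less elsewhere. Csf3r was lower on s169s, at 60.1 CPM, than on the other plates, at 258.1 to 392.4 CPM, and without s480s or s483s under 50% of MG cells had a read of it.

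Of 12 measured genes for nucleotide and nucleoside receptors and enzymes, 3 were above every other label: P2ry12, P2ry13 and P2ry6. P2ry12, the ADP receptor through which microglial processes move towards damage, stood at 4696, 3481, 3059 and 3125 CPM on s169s, s480s, s482s and s483s, against 52.9 CPM in CP-EC (5.97). P2ry6, a receptor for UDP, stood at 587.7 CPM against 10.6 in PC (5.25), and was highest on s169s, at 905.9 CPM. Outside this list, Gpr84, a receptor for medium-chain fatty acids, stood at 527.8 CPM against 4.67 in PC (5.78), and was also highest on s169s, at 769 CPM. Entpd1, an enzyme that breaks down extracellular ATP and ADP, was at 1280 CPM in MG and at 1122 CPM in aSMC, a difference of 0.19. P2ry14 and Adora2a, receptors for UDP-glucose and adenosine, were highest in PC, at 993.3 and 189.9 CPM, and stood at 5.15 and 0.245 CPM in MG.

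**Figure D2:**
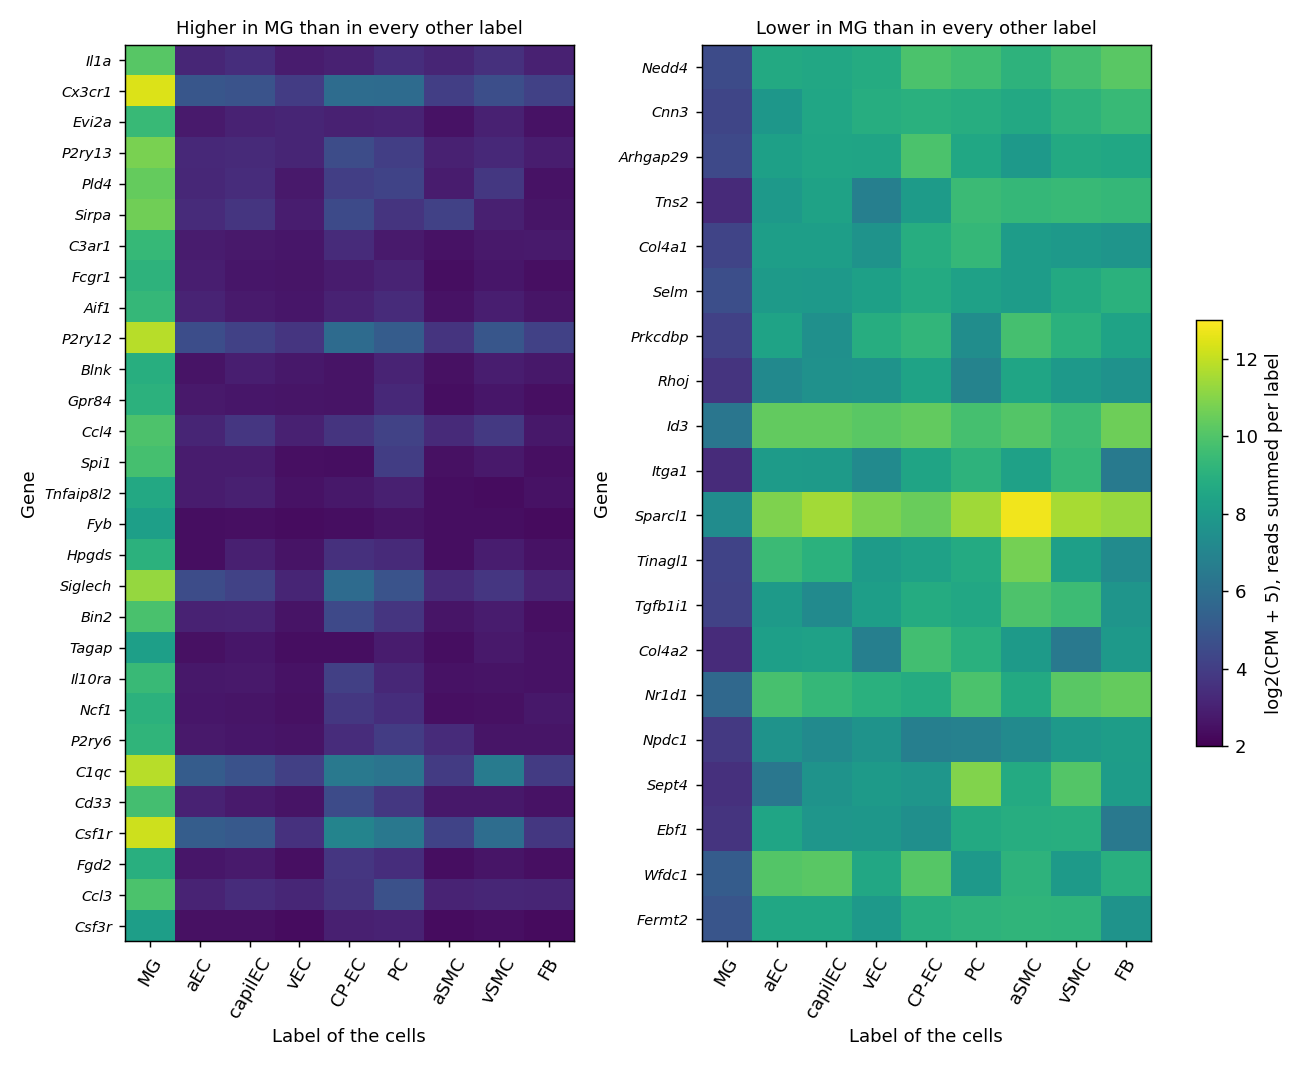
Level on the log2(CPM + 5) scale of genes among the 30 with the largest difference above every other label and of the 20 with the largest difference below every other label, with labels in columns. Colours are to be read along a row, since levels of different genes are not corrected for length; Il1a and Cx3cr1 head the first panel and Nedd4 the second.

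Transcription factors known from myeloid cells were next. Of 17 measured, 5 were above every other label by the rule of size, among them Spi1, which encodes PU.1, at 850.9 CPM against 11.2 in PC; Irf8 at 658.4 against 22.8 in PC; Sall1, which helps keep microglial identity, at 478 against 36.5 in PC; and Irf5 at 426.3 against 33.8 in capilEC. Mef2c, another factor tied to microglial identity, was at 477.9 CPM in MG and 555.5 CPM in vSMC. Ikzf1 and Cebpa were at 240.7 and 143.6 CPM in MG and under 2 CPM in the other labels, and missed the rule because under 50% of MG cells had a read.

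Promoters of these genes were read from RefSeq on build GRCm38.p6, because PU.1 itself was among them and its core letters can be searched. Of the 167 genes, 119 matched an entry by symbol, with 158 promoters of 300 bases each (250 before the start of transcription and 50 after), some of which overlap within a gene. The letters GAGGAAG, on either strand, were in 45 of the 158 (28.5%), in 13.6% of all 32851 promoters and in 13.9% of the 13531 promoters of measured genes. Counted by gene, 43 of 119 (36.1%) held a match, beside 16.5% of the 10566 measured genes. Of the matches, 35 of 49 (71.4%) began in the last 150 bases of the window, which include the 50 after the start, beside 55.2% in all promoters. The AP-1 letters TGANTCA were in 9.49% of the 158, 7.81% of all and 5.24% of those of measured genes, and the CRE letters TGACGT in 5.7%, 7.51% and 10.9%. The overlap of a match with other motifs was not searched, and a match is a description and no binding site.

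The 150 bases before the start are printed for 6 of these genes, 5 with a match and Cx3cr1 with none in its 300 bases, as examples picked after the search. They run 5′ to 3′ on the strand of the gene, and capitals mark the match to GAGGAAG or to its reverse complement. The positions are Cx3cr1 at chr9:120068297-120068446 on the minus strand, P2ry13 at chr3:59210883-59211032 on the minus strand, Il1a at chr2:129309973-129310122 on the minus strand, Laptm5 at chr4:130913166-130913315 on the plus strand, Trem2 at chr17:48346251-48346400 on the plus strand and Fcrls at chr3:87263525-87263674 on the minus strand.
Cx3cr1: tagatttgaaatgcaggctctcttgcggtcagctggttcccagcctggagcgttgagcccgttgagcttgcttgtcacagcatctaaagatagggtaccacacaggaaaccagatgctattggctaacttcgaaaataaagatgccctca
P2ry13: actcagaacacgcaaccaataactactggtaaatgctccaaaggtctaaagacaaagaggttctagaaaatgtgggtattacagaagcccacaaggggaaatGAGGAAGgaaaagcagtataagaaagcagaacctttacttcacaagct
Il1a: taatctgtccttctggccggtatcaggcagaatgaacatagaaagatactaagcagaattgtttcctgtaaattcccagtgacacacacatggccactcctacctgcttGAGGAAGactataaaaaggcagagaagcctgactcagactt
Laptm5: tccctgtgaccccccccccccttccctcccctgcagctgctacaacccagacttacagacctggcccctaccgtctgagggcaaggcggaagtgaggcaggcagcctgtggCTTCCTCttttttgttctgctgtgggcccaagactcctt
Trem2: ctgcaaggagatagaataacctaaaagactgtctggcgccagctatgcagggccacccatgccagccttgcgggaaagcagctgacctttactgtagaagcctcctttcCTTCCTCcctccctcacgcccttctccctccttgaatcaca
Fcrls: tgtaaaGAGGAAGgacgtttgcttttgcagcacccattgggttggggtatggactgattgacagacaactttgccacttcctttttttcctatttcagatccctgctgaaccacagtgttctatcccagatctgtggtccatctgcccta
The matches of P2ry13, Il1a, Laptm5 and Trem2 begin 48, 41, 39 and 41 bases before the start, and that of Fcrls 144 bases before it. All 6 genes were in the list higher in MG than in every other label.

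To describe gene groups, MG was also set against the mean CPM of the other 8 labels, each label weighted alike. By a 4-fold difference with the same minimums, 263 of 13251 genes (1.98%) were higher in MG and 401 (3.03%) were lower, and the median difference of all 13251 genes was -0.35. A list is given by its members past this rule and its median, to be read against these background values.

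Of the 17 genes of the microglial identity list, 15 were higher in MG than the mean of the other labels and 14 were above every other label, with a median difference of 6.35. Olfml3, a secreted protein, was at 2872 CPM in MG and also at 1413 CPM in FB. Sparc, a matrix-binding protein, was at 3157 CPM in MG, 3514 CPM in PC and 2393 CPM in the mean of the other labels, so it did not stand apart in MG. Over plates the members did not move together: 7 of the 17 were lowest on s169s, among them Tmem119, and 9 were highest there, among them P2ry12.

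Signalling through ITAM adaptors, which couples Trem2 and the Fc receptors to the kinase Syk, was the next highest of the receptor groups. Of 17 genes, 10 were higher in MG than the mean and 9 were above every other label, with a median difference of 4.42. Trem2, a receptor for lipids, stood at 1525 to 1673 CPM over the plates against 56.2 CPM in CP-EC. Its adaptor Tyrobp was at 1289 CPM and the Fc receptor chain Fcer1g at 1111 CPM, both under 50 CPM elsewhere. The inhibitory receptor Cd33 was at 827.7 CPM, and the phosphatase Inpp5d at 185.4 CPM on s169s and 1207 to 1311 CPM on the others. Syk itself was at 95.1 CPM, with a read in too few cells for the rule.

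Genes of actin and of motility were higher for 10 of 17 members measured against the mean, with a median difference of 4.66. The leukocyte tetraspanins Cd53 and Cd37 were at 1310 and 588.2 CPM in MG, against 36.1 CPM in PC and 26.0 CPM in vEC. Coro1a, an actin-binding protein of leukocytes, stood at 404.6 CPM on s169s and at 994.7, 1008 and 1206 CPM on s480s, s482s and s483s, against 48.3 CPM in vEC. Fermt3, which activates leukocyte integrins, was also lowest on s169s, at 179.5 CPM, and the GTPase Rac2 was not, at 462.8 CPM there and 238.9 to 401 CPM on the others. Ptprc, which encodes CD45, was at 366.9 CPM against 34.1 CPM in PC.

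Of 24 cytokine and chemokine receptors measured against the mean, 7 were higher in MG than the mean and 6 of these above every other label, with a median difference of 2.65. Cx3cr1, Csf1r, Csf3r, Tgfbr1 and Il10ra were among the latter, and Ifngr1, a chain of the interferon gamma receptor, at 971.1 CPM, was 1.84 above CP-EC. Ifngr2, the partner chain of Ifngr1, was at 242.2 CPM in MG and 114.8 CPM in CP-EC. Ackr3, a scavenger of Cxcl12, was lower, at 18.7 CPM. Il10rb, the partner of Il10ra, was at 324 CPM in MG and 498 CPM in capilEC, and Ifnar2, of the type I interferon receptor, at 348.4 CPM in MG and 440.1 CPM in aEC. P2rx7 and Adora3, a channel opened by ATP and an adenosine receptor, were at 273.4 and 191.6 CPM with a read in 35.8% and 46.7% of MG cells, and at 23.2 CPM or less elsewhere.

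Complement genes parted by role. The 3 chains of C1q, which starts the classical pathway, were at 3245 (C1qa), 3913 (C1qb) and 3562 CPM (C1qc), each at least 4.29 above the highest other label on the log2 scale. The receptors C3ar1 and C5ar1 and the integrin chain Itgb2 were also above every other label. Regulators that limit complement on cell surfaces and in fluid were not: Cd59a was at 11.4 CPM and Serping1 at 2.24 CPM, against 324 CPM in aEC and 2166 CPM in FB. C3, the central component, was at 9.32 CPM in MG and under 1 CPM in the other labels. Only 2.2% of MG cells had a read of C3. In the list of 16 genes, 6 were higher and 2 lower than the mean of the other labels.

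Genes of the lysosome and of phagocytosis were higher in MG for 12 of 23 measured members, with a median difference of 2.41. The cathepsins differed among themselves. Ctss was at 5453, 3641, 3374 and 3395 CPM on the 4 plates against 113 CPM in PC, and Ctsd at 4058 to 4909 CPM against 751 CPM in FB. Ctsb and Ctsz, at 2849 and 1721 CPM, were above the mean but under 4-fold above FB. Ctsl was at 1468 CPM in MG and 1292 CPM in FB. Of the receptors that bind dying cells through Gas6 and Pros1, Mertk was higher in MG, at 545.1 CPM against a mean of 83.3, and Axl was at 72.0 CPM against 969.2 CPM in vSMC.

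Sensors of microbes and damage were higher for 5 of 20 members, with a median difference of 3.75. Cd14, which presents lipopolysaccharide, stood at 1434 CPM on s169s and at 651.6 to 868.9 CPM on the others, against 36.7 CPM in vEC. Tlr2 was at 367.1 CPM, Ly86, a partner of the receptor Cd180, at 1135 CPM, and Tmem173, which encodes the DNA-signalling adaptor STING, at 1024 CPM. Tlr4, the receptor for lipopolysaccharide, was at 48.1 CPM in MG and 82.9 CPM in FB. Of the inflammasome genes, the adaptor Pycard was at 373.6 CPM with a read in 71.5% of MG cells and above every other label, and the sensor Nlrp3 was at 99.0 CPM with a read in 27.0% of MG cells.

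Cytokine and chemokine genes were mixed. Of 16 cytokine genes measured, Il1a and Tnf were higher in MG and Tgfb2 lower, with a median difference of -0.10, which became 0.20 with TMM factors and 0.16 with DESeq2 size factors. Tnf stood at 850.9, 695.6, 350.4 and 1048 CPM on s169s, s480s, s482s and s483s against 68.9 CPM in vEC, and its median over cells was 15.3 CPM, so a minority of cells held most of it. Il1b, at 259.7 CPM, had a read in 29.9% of MG cells, with 566.8 CPM on s169s and 531.2 CPM on s483s against 85.0 CPM on s480s. Of 13 chemokine genes, Ccl3, Ccl4 and Ccl12 were higher, and Cxcl12 and Cx3cl1 lower. Ccl4 was at 1346 CPM on s169s and 812.7 to 848.7 CPM elsewhere. Ccl3 was at 718.9 to 1279 CPM.

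Immediate early genes, which are turned on within minutes by stimulation and by the dissociation of tissue, were high in MG on every plate. Their 21 genes summed to 31645, 33585, 29682 and 29667 CPM on s169s, s480s, s482s and s483s, against 19123 CPM in aSMC and 4283 CPM in capilEC. Of the 21, 7 were higher in MG than the mean and 2, Jun and Ier5, were above every other label, with a median difference of 1.66. Egr1 was at 4407 CPM in MG and 2479 in aSMC, and Fos at 3442 and 3838 CPM. Il1a, Tnf, Ccl3 and Ccl4 are also known to be induced in microglia by dissociation, and how far the procedure set their levels was not tested.

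**Figure D3:**
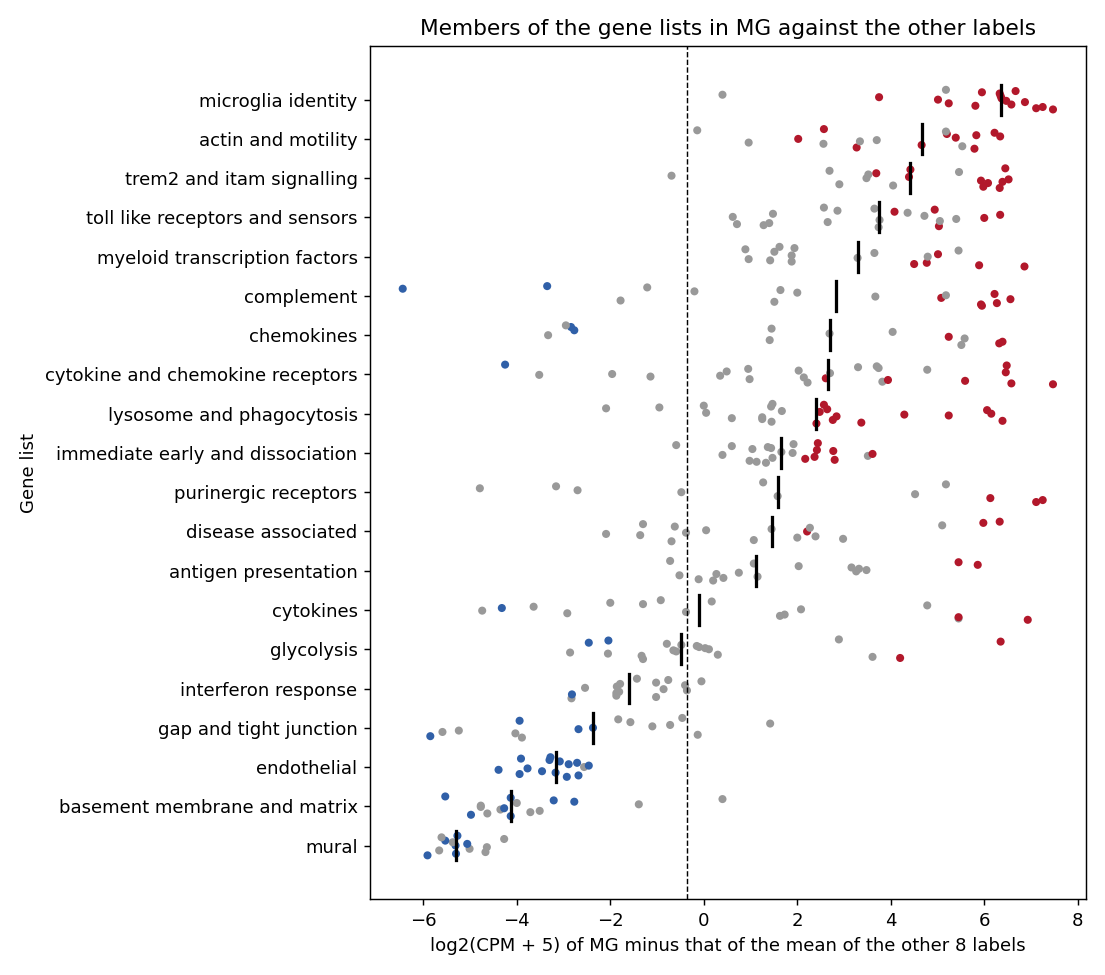
Members of 20 gene lists (points) by the difference of MG from the mean of the other 8 labels on the log2(CPM + 5) scale, with the median of each list as a bar and that of all 13251 genes, -0.35, as a dashed line. Red members are higher and blue members lower by the rule of size; the identity list lies farthest to the right, at 6.35, and the mural list farthest to the left, at -5.30.

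Interferon-response genes, which microglia induce in infection and ageing, were low. None of 16 was higher in MG than the mean, 1 (Ifitm3) was lower by the rule of size, and the median difference was -1.61, or -1.36 with TMM factors and -2.17 without the 12 MG cells described below. They summed to 681.3 CPM in MG, where the median cell held 178 CPM. In the other labels the sum ran from 810.8 CPM in aSMC, near that of MG, and 1198 CPM in PC to 3678 CPM in aEC. Cell s480s_F17, also described there, held 9155 CPM of them. Of 11 cell cycle genes measured against the mean none was higher or lower in MG by the rule of size: Mki67 was at 0.0613 CPM and Top2a at 0.552 CPM, and Plk1, Ccnb2, Aurkb and Rrm2 had no read in MG.

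Most genes by which microglia change in disease models did not meet the rule of size, though the list lay above the background of all genes. Of 17 measured, 3 were higher than the mean, beside 1.98% of all genes. These were Trem2, Tyrobp and Cd9, which are also high in resting microglia. Apoe, a lipid carrier induced in disease models, was at 718.3 CPM in MG and 3440 CPM in FB, but the median MG cell held 56.4 CPM and the highest 11249 CPM. Spp1, Cst7, Lpl and Clec7a were at 27.3 to 71.7 CPM with a read in 20.4% of MG cells or fewer. The median of the list was 1.45 over all MG cells and 0.43 without the 12 MG cells described next, beside -0.35 and -0.39 for all genes.

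Levels of the identity genes also showed that the label was not uniform. Summed over 16 genes of the list, without Sparc, they ran from 756.6 to 75791 CPM per MG cell with a median of 46324 CPM. In 6 cells the sum was under 10% of that median (4.38% of MG cells, exact binomial interval 1.62 to 9.29%), the highest of them at 4263 CPM. The next cell stood at 14031 CPM, and 6 cells lay between 10 and 50% of the median. These cut-offs were set after the values were seen, and the cells are described by their genes without a new name.

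Of the 6 lowest cells, 5 had reads of MHC class II genes, and 3 had over 20000 CPM of them. Cells s482s_C21, s169s_K15 and s483s_D11 had 25026, 21877 and 25597 CPM of the class II genes H2-Aa, H2-Ab1, H2-Eb1 and Cd74, where the median MG cell had 0. Cd209a, a lectin of dendritic cells derived from monocytes, was at 1101, 2196 and 2084 CPM in them. Each had Tmem119 at 6.70 CPM or less and P2ry12 at 3.35 CPM or less, so both were near 0, while Csf1r ran from 0 to 662.9 CPM in them.

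The other 3 differed from these and from each other. Cell s483s_K22 had no class II read, 4795 CPM of the integrin Itgal, 2500 CPM of Ace, 8744 CPM of Nr4a1 and 468.7 CPM of Plac8. Nr4a1 is an immediate early gene and had a read in 83.9% of MG cells. Cell s480s_F17 had 1170 CPM of Ly6c2, 1308 CPM of Plac8 and 1821 CPM of Ccr2, genes known from classical monocytes. It also had 5695 CPM of Nr4a1, 717 of Itgal, 209.8 of Ace and 617.9 of Cbr2, and 2073 CPM of class II genes. Cell s482s_C20 had 22098 CPM of the endothelial list, 3803 CPM of Cldn5 and 7.80 CPM of Cx3cr1, so its genes went against its label. It also held 5690 CPM of class II genes and 31.2 CPM of Cd209a, and its well name is next to that of s482s_C21.

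Between 10 and 50% of the identity median, cell s480s_J16 held genes of border macrophages: Mrc1 at 4299 CPM, Cbr2 at 1850, F13a1 at 1782, Cd163 at 627.2 and Lyve1 at 527.3 CPM, with no read of Tmem119, 695.1 CPM of Cx3cr1 and 4410 CPM of Csf1r. Cells s169s_K4, s482s_C23 and s482s_F3 had 37193, 32750 and 25565 CPM of class II genes and 11249, 7388 and 7631 CPM of Apoe, beside C1qa at 3412 to 5387 CPM. They also held 4399, 1921 and 1298 CPM of the border macrophage list. Of its genes, Ms4a7 was at 2181 CPM in s169s_K4 and 796.6 CPM in s482s_C23, Pf4 at 666 CPM in s169s_K4 and 481.2 CPM in s482s_F3, and F13a1 at 816.5 CPM in s482s_F3. Cell s482s_F3 also held 2080 CPM of Ccr2 and 447.2 CPM of Flt3. Cell s482s_F18 had 16692 CPM of the endothelial list and 4285 CPM of the mural list together with 14031 CPM of the identity genes. Cell s169s_L11 had 2958 CPM of class II genes and 6211 CPM of Apoe.

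**Figure D4:**
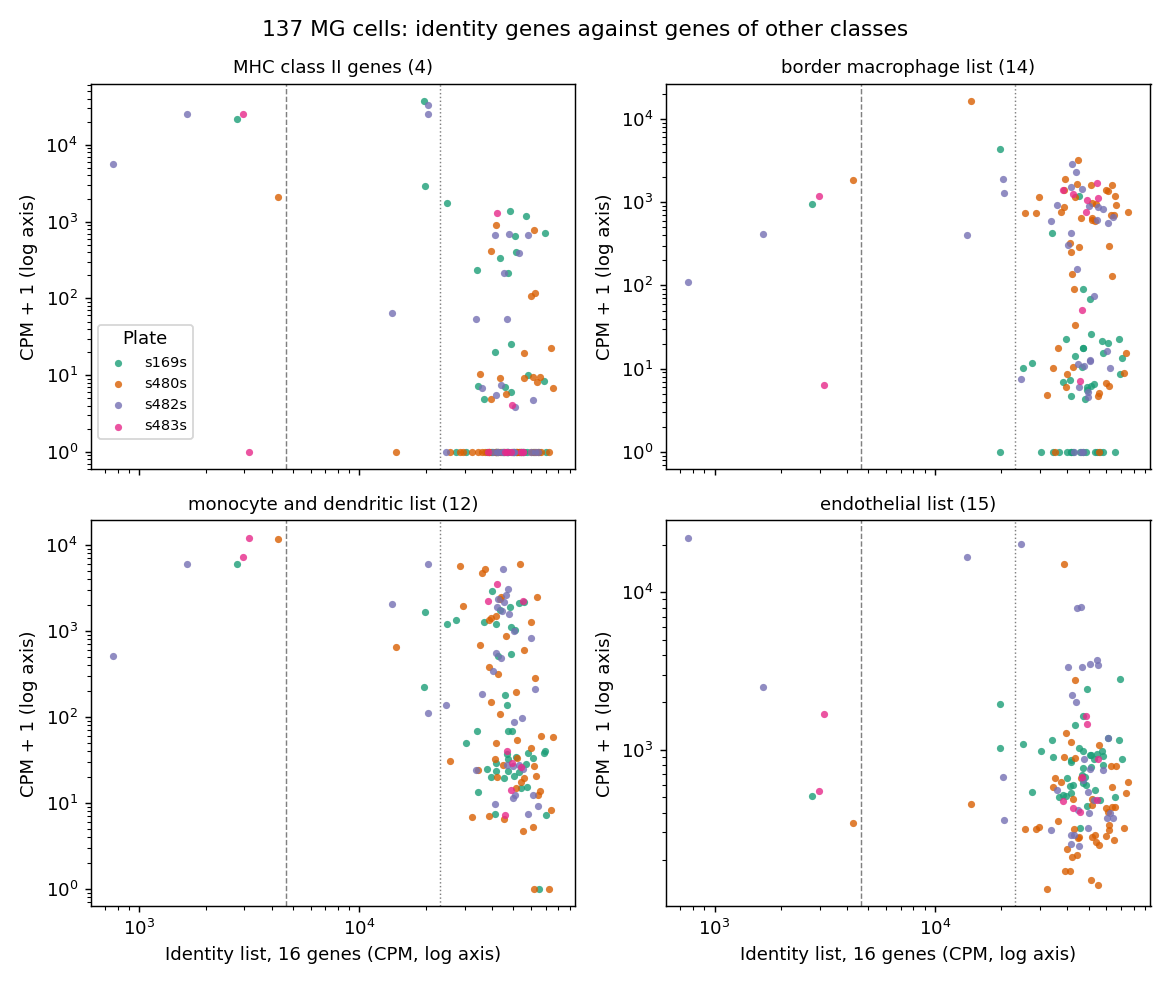
Each of the 137 MG cells by its summed identity genes (16 genes, horizontal log axis) against its summed class II genes, border macrophage list, monocyte and dendritic list, and endothelial list (vertical log axes, CPM + 1), coloured by plate. The dashed and dotted lines mark 10% and 50% of the median identity level; 6 cells lie left of the first and 6 between the lines, and most class II reads lie in those 12 cells.

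These few cells held nearly all that MG had of some genes. The class II genes summed to 1261 CPM over all 137 cells, 636.4 CPM without the 6 lowest and 111.3 CPM without the 12. The 6 cells above 20000 CPM, which fall on both sides of the 10% line, held 83.7% of the class II reads of MG, and 80 of the 137 cells had none. Mrc1 went from 35.1 to 35.4 and 0.574 CPM over the same 3 sets, Ccr2 from 63.6 to 14.6 and 0.270 CPM, and S100a4 from 44.5 to 0.259 and 0.169 CPM. The median difference of the antigen presentation list went from 1.11 to 0.77 and 0.16, while H2-DMa and Cd86 were its members above every other label over all cells. Microglial genes moved little: Cx3cr1 was at 5539, 5850 and 6023 CPM, and Spi1 at 850.9, 844.8 and 845.1 CPM. Cx3cr1 is among the identity genes by which the cells were picked, so its small rise follows from that choice. Spi1 is not among them.

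Stab1, a scavenger receptor on the border macrophage list, did not follow these cells. It stood at 453.6 CPM over all MG cells and 471.3 CPM without the 12, and was at 33.96 CPM on s169s against 455 to 783.9 CPM on the other plates. Of 3 lymphocyte genes measured against the mean none met the rule of size, with Cd79b, which microglia are known to express, at 52.0 CPM, and Cd3e was at 0.0613 CPM. The neutrophil genes S100a8, S100a9 and Ly6g had no read, and of their list the receptor gene Csf3r alone was higher in MG.

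RNA of vessel wall cells was present in MG at a low level. The 15 endothelial genes, such as Cldn5 of tight junctions and the glucose transporter Slc2a1, summed to 885.6, 754.9, 2989 and 809.1 CPM in MG on s169s, s480s, s482s and s483s, against 24976 CPM in capilEC. In 13 MG cells the sum exceeded 10% of the capilEC median of 25544 CPM, and 10 of the 13 were on s482s. The median MG cell did not follow this order, with 848 CPM on s169s, 351.9 on s480s, 707.4 on s482s and 612.3 on s483s. In 4 cells it exceeded 50%. The mural list summed to 158.4 CPM in MG against 18331 to 22179 CPM in PC, aSMC and vSMC, and the fibroblast list to 10.1 CPM against 15449 CPM in FB. The astrocyte list summed to 1180 CPM in MG, with 1084 CPM in the median MG cell, and to 154.1 CPM in CP-EC, 836.6 in capilEC and 6698 in FB. So it was not absent from MG, although its members Aqp4 and Aldh1l1 had no read there. The oligodendrocyte list summed to 197.6 CPM in MG, where Mog and Olig1 had no read and Mbp was at 30.5 CPM. The neuronal list summed to 24.0 CPM in MG, where Tubb3 had no read and Snap25 was at 8.37 CPM.

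Microglial reads were found in the other labels as well. The 16 identity genes had a median per cell of 111 CPM in aEC, 161 in capilEC, 295 in PC and 1499 in FB. In 13 cells of other labels they exceeded 10% of the MG median, and in 0 cells 50% of it. Of the 13, 6 were capilEC, 2 aEC, 2 PC, 1 CP-EC, 1 vSMC and 1 FB. The CP-EC cell held 10604 CPM, where the median of the 17 CP-EC cells was 136.1 CPM. Without these 13 cells and the 13 MG cells with endothelial reads, 174 genes were higher in MG than in every other label, 164 of them among the 167.

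Genes lower in MG than in every other label had to meet a stricter rule, so their number is not to be compared with the 167. Against the mean of the other labels, more genes were lower than higher, 401 against 263. The rule asked for a 4-fold difference from the lowest other label and at least 50 CPM in each of the other 8 labels. A read in at least 50% of the cells of that lowest label was also needed. By this rule 46 genes were lower (0.297% of 15494). For 34 of them MG was also below each other label on each plate with at least 5 cells of both. FB on every plate, and CP-EC on every plate but s483s, had too few cells to be compared in this way. Of the 46, 4 are in the list of basement membrane and matrix genes: Sparcl1, Col4a1, Col4a2 and Lama4. Nedd4, a ubiquitin ligase, had the largest difference, at 17.5 CPM in MG against 384.3 CPM in capilEC, the lowest of the others (-4.11). Col4a1 and Col4a2, the chains of the common collagen IV, were at 13.8 and 5.37 CPM in MG against 195.3 CPM in vEC and 81.8 CPM in vSMC (-3.41 and -3.07). Itga1, a collagen-binding integrin chain, Tns2 and Fermt2 of focal adhesions, and Tgfb1i1, a partner of paxillin, were at 5.12, 4.94, 25.2 and 12.9 CPM in MG. Of these, Fermt2 was -1.60 without s480s, and Itga1 was -2.22 without s480s and -3.78 without s482s, where it missed another part of the rule.

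Other genes of this group act in transcription. Id3, which blocks basic helix-loop-helix factors, was at 74.95 CPM in MG against 731.3 CPM in vSMC (-3.20), and Nr1d1, a repressor of the clock, at 47.0 CPM against 408 CPM in aSMC (-2.99). Sparcl1 was at 61.8, 67.5, 406 and 47.9 CPM on s169s, s480s, s482s and s483s, against 1410 CPM in CP-EC (-3.10). MG cells on s482s, where most MG cells with endothelial reads lay, had the highest level for 30 of the 46 genes, and the part of those reads in the levels was not tested. For the genes higher in MG than in every other label, s482s was highest for 19 of 167. Without the 26 mixed cells, 79 genes were lower in MG than in every other label.

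Glycolysis genes as a list lay near all genes, and junction genes lay lower. Of 19 glycolysis genes measured against the mean, Hk2 and the fructose transporter Slc2a5 were above every other label, at 91.02 and 741.8 CPM, and Slc2a1 and the lactate transporter Slc16a1 were lower than the mean. The median difference of the list was -0.48, beside -0.35 for all genes. Of 15 gap and tight junction genes 4 were lower and none higher, with a median difference of -2.37, and the list summed to 1833 CPM in MG against 8708 CPM in capilEC. The 4 were Cldn5, Ocln, Cdh5 and the connexin gene Gja4, which was at 3.00 CPM against 1208 CPM in vSMC. F11r, a junction adhesion molecule, was at 928.9 CPM in MG and 844.9 CPM in CP-EC. Of 13 ion channel genes measured against the mean none met the rule, and Hvcn1 and Kcnk13, a proton channel and a potassium channel of microglia, were at 339.4 and 187.8 CPM in MG and at 4.95 CPM or less elsewhere, with a read in 44.5% and 32.8% of MG cells. Of 16 genes of cholesterol and lipids, the exporters Abca1 and Abcg1 were higher than the mean, at 313.9 and 272.4 CPM. The iron importer Tfrc was at 16.8 CPM against 777.7 CPM in capilEC, and the ferroxidase Cp at 25.8 CPM against 1063 CPM in FB.

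The cells of the vessel wall and MG held opposite sides of several ligand and receptor pairs, from a list of 26. Genes are compared between labels and not with each other. For Csf1r, on which microglia depend, the ligand Il34 was at 396.8 CPM in PC, 315.6 in FB, 298.9 in vSMC and 117.7 in aSMC, and at 9.61 CPM or less in the 4 EC labels and in MG. The other ligand, Csf1, was highest in vEC, at 102.9 CPM, and at 19.96 CPM in MG. Thus the 2 ligands were highest in different labels. Cx3cl1, the ligand of Cx3cr1, was at 551.5 CPM in CP-EC, 305.8 in aEC, 238 in capilEC and 183.8 in FB, and at 22.3 CPM in MG, with 63.6 CPM of it on s482s and 9.90 CPM or less on the other plates.

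For some further pairs, RNA of the ligand was high in wall labels and RNA of the receptor was present in MG. Tgfb2 was highest in aEC, at 551.7 CPM, and its receptor Tgfbr2 was at 825.4 CPM in MG and 828 CPM in aEC. Tgfbr1 was 2.19 higher in MG than in any other label, at 793.1 CPM. Gas6, which bridges dying cells to Mertk, was at 114.3 to 273.8 CPM in every wall label but FB, and at 90.2 CPM in MG. Cd47 was at 82.6 to 575 CPM in all labels, while its receptor Sirpa was at 16.9 CPM or less outside MG. Icam2 was at 496.3 to 695.3 CPM in the 4 EC labels, and Itgb2, a chain of its receptor, at 637.4 CPM in MG and 20.7 CPM or less elsewhere. Other ligands of the same receptors were highest in MG itself. Pros1, for Mertk, was at 382.9 CPM in MG against 255 in vEC, and Icam1, for Itgb2, at 483.3 against 182.3 in vEC. Tgfb1, for Tgfbr2, was at 25.7 CPM in MG against 6.90 in aEC. Cxcl12 was at 3621 CPM in capilEC, but its receptor Cxcr4 was at 3.53 CPM in MG.

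In the other direction, RNA of inflammatory ligands was high in MG and RNA of their receptors was present in the wall. Il1r1, the receptor of Il1a and Il1b, was highest in vEC, at 272.7 CPM, with 70.1 CPM in CP-EC and 40.7 CPM in capilEC, and it was at 0.920 CPM in MG. Osm was at 160 CPM in MG, with a read in 23.4% of MG cells, and at 6.35 CPM or less elsewhere. Its receptor chain Osmr was at 77.8 to 404 CPM in the wall labels and at 3.50 CPM in MG. Tnfrsf1a, for Tnf, was at 377 CPM in MG and 91.5 to 300.1 CPM in the others, so it was in all labels. Ccl3 and Ccl4 were highest in MG, and Igf1, a growth factor, was at 8.19 CPM in MG and 215.1 CPM in FB.

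**Figure D5:**
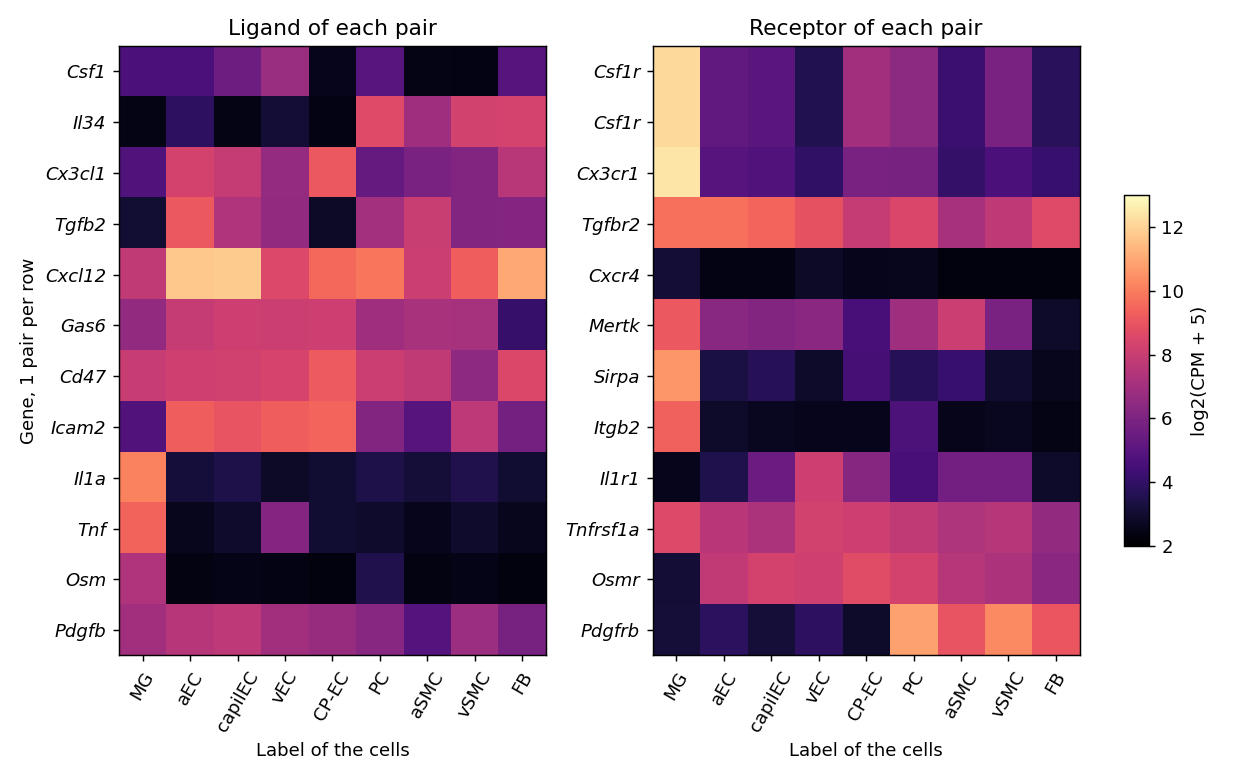
Level on the log2(CPM + 5) scale of the ligand (left) and receptor (right) of 12 of the 26 pairs, with labels in columns and 1 pair per row. Along a row, Il34 is high in PC, vSMC and FB while Csf1r is high in MG, and Il1a is high in MG while Il1r1 is highest in vEC.

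The plates differed in MG beyond the share of cells. On s480s, Xist, the RNA that silences an X chromosome in females, was at 978.3 CPM in MG, with a read in 47 of 49 MG cells, and Y-linked genes were at 4.91 CPM. On s169s, s482s and s483s Xist was at 0.360 CPM or less and Y-linked genes at 110.3 to 214.9 CPM. Over all cells, s480s had 715.2 CPM of Xist and the other plates 0.323 CPM or less. The labels name no sex, and sex and plate cannot be told apart. With a 4-fold difference and at least 50 CPM in the higher group, 8 genes (0.0692% of 11559) were higher and 27 (0.234%) lower in MG on s480s than on the other plates. In capilEC 2 genes were higher, 0.0174% of 11465, and 0 were lower. Xist and Tsix were the 2 genes higher in both, and they overlap on opposite strands, so their reads cannot be told apart without strand. Per1, a clock gene, was at 547.1 CPM on s480s and 126.6 CPM on the others in MG, and at 32.9 and 42.8 CPM in capilEC. Of the 8 lower genes with the largest difference, several are endothelial, such as Ocln at 4.44 against 63.0 CPM and Emcn at 8.79 against 83.9 CPM.

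Plate s169s stood apart more widely. In MG, 149 genes (1.31% of 11391) were lower and 17 (0.149%) higher there than on the other plates, and in capilEC 91 (0.791% of 11503) were lower and 2 (0.0174%) higher. Of these, 37 genes were lower in both labels, which is 24.8% of the MG genes and 40.7% of the capilEC genes. Sun2, a protein of the nuclear envelope, was at 0.125 CPM in MG on s169s and 532.2 CPM on the others, and at 7.19 and 207.7 CPM in capilEC. Man2b2, a lysosomal mannosidase, was at 0.999 and 337.8 CPM in MG, and Mgat1, an enzyme of glycan synthesis, at 7.49 and 286.5 CPM. Among the higher genes were Gem, a small GTPase, at 803.9 against 163.6 CPM, and the stress factor Ddit3, at 415.5 against 73.1 CPM. In capilEC, Gem was at 11.9 against 1.21 CPM and Ddit3 at 61.4 against 43.5 CPM. Cells on s169s also had fewer reads, with a median of 167261 per MG cell against 246568 to 259306 on the others, and the part of depth or plate in these differences was not tested.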

How the data were processed

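RNA was measured in 1235 single cells, of which 137 carried the label MG. The authors deposited a table of raw counts, 46517 gene rows by cells, and a type label for each cell. The tools listed were featureCounts, Subread 1.4.6-p5 and also SAMtools 1.16.1, per the submitters' processing notes, which list 2 builds (GRCm39, GRCm38) with no word on which step took which. The aligner and the filters on cells are not given in the sources. Every cell held at least 100021 reads. Symbols are those of the table, with 42105 rows (90.5%) matching a reference symbol. 0 columns were left out, 0 cells had counts identical to another cell, and no doublet caller was run.

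For each label, or label on a plate, the reads of its cells were added up per gene and scaled to CPM. Each label is 1 sample, so no test was possible. The size rule asked for a 4-fold difference of CPM + 5, 50 CPM in the higher group and a read in 50% of its cells. A gene entered a comparison with over 5 CPM in either group for the mean of labels and for plates. Sums have exact Poisson and shares exact Clopper-Pearson 95% intervals. Shares were taken after thinning each cell to 100000 reads where said. Named genes are the first 30 higher and the first 20 lower by difference among genes in the same order on every plate with at least 5 cells, the first 8 each way between plates, and members of 33 lists or 26 pairs. Of the 167 genes higher in MG, 14 had names of kinds that were counted and not named (mitochondrial, ribosomal protein, predicted, Rik, clone and pseudogene names). Some genes are not reported here. The label, the lists, the pairs and the rules were chosen with earlier results of these data known. The scripts were tested on simulated data. TMM factors came from edgeR 4.0.16 and size factors from DESeq2 1.42.0, in R 4.3.3, and the rest was computed in Python 3.11.15 with numpy 2.4.6, pandas 2.3.3 and scipy 1.17.1.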

Additional observations from a re-analysis of the deposited data

How the results depend on the processing

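The counts of genes higher or lower in MG were recomputed under 17 alternatives, 2 of them chosen after seeing the data (MG cells under 10% or under 50% of the identity median left out). Genes higher than every other label numbered 167 and ran from 148 to 189 when each plate was left out, and genes lower than every other label numbered 46 and ran from 41 to 61. Against the mean of the other labels, 263 were higher (250 to 298 without a plate) and 401 lower (390 to 419). Without the minimum share of cells these counts became 361 higher than every other label, 638 higher than the mean and 954 lower than the mean. The count lower than every other label became 26 with a pseudocount of 20 CPM, 29 with every cell thinned and 79 without mixed cells. The median of all genes moved from -0.35 to -0.08 with TMM factors, -0.17 with DESeq2 size factors and -0.07 when, for each gene, its top cell was dropped. With TMM factors 188 genes were above every other label, including all 167. Of the 30 named genes higher in MG, 26 met the rule under every alternative. Csf3r, Fyb, Fgd2 and Tagap missed it with cells thinned, where fewer cells have a read, and the first 3 also without s480s, with Csf3r and Fyb missing it without s483s too. Without s169s Rhoj was -1.47, and without s482s Npdc1 was -1.69. Of the 20 lower ones 11 met it under every alternative. Tinagl1 turned to 0.99 without s169s and to 0.15 with its top cell dropped, and Ebf1 to 0.55 and 0.32; both rest on FB, which has 9 cells, and the cause was not tested. No paired analysis was possible because each label is 1 deposited sample with no replicate number, and the plates, which hold 1 to 4 FB cells each, are not said to be replicates. Precision is limited by 137 MG cells, 10 of them on s483s.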
